A study of Homo sapiens with 20 samples.

Results

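The genes described here encode the receptor chains and signal transducers of the interferon pathway, namely IFNAR1, IFNAR2, IFNGR1, IFNGR2, JAK1, TYK2, STAT2, STAT3 and IRF1. ChIP-seq peaks were taken when they overlapped 1 of these 9 genes or the 10 kb on either side of it, with hg19 gene bounds from GENCODE. Merged over all 16 peak lists, these peaks formed 122 regions of the 224475 regions in the series. The 9 windows together spanned 800 kb and held 15.2 regions per 100 kb, against 7.25 per 100 kb over the full length of the chromosomes. The windows were built on genes and the chromosomes also hold stretches without genes, so these densities are not like for like.

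STAG1, STAG2, SMC1A and CTCF were each profiled in M14, an established human melanoma cell line that carries a doxycycline-inducible shRNA against STAG2. WT cells carried the same shRNA and were cultured without doxycycline, whereas STAG2-KD cells received it, for 5 days according to the labels of the first set. Each antibody had 1 WT and 1 STAG2-KD library in each of 2 sets, called set 1 and set 2, which differed in chromatin preparation, size selection and peak threshold. All lists came from this 1 line, and the labels do not say whether it was a clone. No measure of STAG2 RNA or protein was analysed here. The labels do not name separate cultures behind the sets, so differences between sets measure the spread between these libraries, which may be technical.

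Type I interferon binds a receptor made of IFNAR1 and IFNAR2, and interferon gamma binds one made of IFNGR1 and IFNGR2. The kinases JAK1 and TYK2, bound to the receptor tails, phosphorylate STAT proteins. STAT2 enters the nucleus in a complex with IRF9 that binds the interferon-stimulated response element (ISRE), whereas STAT dimers bind the gamma-activated site (GAS) in promoters such as that of IRF1. Cohesin is a ring complex with SMC1A as a core subunit and either STAG1 or STAG2 as its accessory subunit. It often halts at DNA-bound CTCF and holds chromatin loops there.

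Depth was read from the lists themselves. MACS2 derives the fold enrichment and the p-value of a peak from the reads at its summit and an expected background, so both could be recovered. The lowest background was 0.896 to 2.08 reads per position in set 1 and 2.08 to 3.98 in set 2. The weakest peaks rested on 6 to 10 reads in either set. Lists held 58521 to 91582 peaks in set 1 and 98453 to 150308 in set 2. Read counts carry exact 95% Poisson intervals, which cover counting error only. Counts were not scaled to depth, which differed between conditions. The lowest background of STAG1 was 2.08 reads in WT and 1.79 in STAG2-KD in set 1, and 3.98 and 3.615 in set 2. For STAG2 it was 1.99 and 1.89 in set 1 and 3.61 and 3.72 in set 2. For SMC1A it was 1.022 and 1.123, then 2.671 and 2.635, and for CTCF 0.896 and 0.96, then 2.078 and 2.139.

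The sites at which a peak appeared or disappeared in both sets are the repeats that this design offers, and the sequences below show the ones with a motif or at a promoter, beside the promoters of IRF1 and TYK2. They were read from GRCh37 on the minus strand, 5′ to 3′, since all of these genes lie on that strand. Capitals mark the ISRE (GAAANNGAAA) in the STAT2 downstream site, where it runs in the reverse direction, the core of the CTCF motif in the JAK1 gained site, and the GAS (TTCNNNGAA) in the IRF1 promoter. The STAT2 downstream site is an intronic stretch at chr12:56752725-56752845, and the STAT2 upstream site lies at chr12:56753988-56754082, ahead of the transcript start. The JAK1 gained site is an internal stretch of the gene at chr1:65312420-65312522, in a region within 1 kb of an annotated JAK1 transcript start. The IRF1 promoter stretch is chr5:131826505-131826625 and the TYK2 promoter stretch is chr19:10491288-10491408.
STAT2 downstream site: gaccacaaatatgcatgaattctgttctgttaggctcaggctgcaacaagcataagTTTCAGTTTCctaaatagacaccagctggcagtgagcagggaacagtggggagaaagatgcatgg
STAT2 upstream site: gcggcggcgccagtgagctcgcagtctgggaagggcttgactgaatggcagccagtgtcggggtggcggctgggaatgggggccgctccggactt
JAK1 gained site: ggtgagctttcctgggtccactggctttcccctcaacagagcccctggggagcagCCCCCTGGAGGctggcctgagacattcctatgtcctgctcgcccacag
IRF1 promoter: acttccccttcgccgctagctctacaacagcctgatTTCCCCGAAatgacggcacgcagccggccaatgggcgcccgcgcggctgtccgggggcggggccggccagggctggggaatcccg
TYK2 promoter: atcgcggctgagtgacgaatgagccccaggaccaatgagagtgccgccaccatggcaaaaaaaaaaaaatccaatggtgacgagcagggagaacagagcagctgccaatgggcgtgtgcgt

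Both strands were searched, and no printed stretch held a second kind of motif. The GAS of IRF1 lies 124 to 116 bases before the canonical start and reads as a match on either strand. Among promoters of the same length (250 bases before to 50 after the start of 19856 protein-coding genes) 6.50% held a GAS, 3.29% an ISRE and 2.52% the CTCF core. IRF1 was the only one of the 9 genes with any of the 3 motifs in this window. In windows of 201 bases around the summits of all STAG2 sites, 3.35% held an ISRE, and so did 3.69% of the 3492 STAG2 sites lost in both sets across the series. For CTCF, 7.64% of the 1531 sites gained in both sets held the CTCF core, against 15.5% of all CTCF sites and 23.4% of those in all 4 lists.

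The 122 regions ranged from sites occupied in every library to sites seen once. Of these, 20 were present in all 16 lists and 20 in 12 to 15 lists, whereas 41 were present in 1 list. The shares in all 16 lists (16.4%) and in 1 list (33.6%) were close to those over all regions of the series (16.6% and 32.5%). Of the 41 regions seen once, 35 were SMC1A peaks. The share of SMC1A among all regions seen once was not computed, and the SMC1A lists of set 2 were the longest of the series (148396 and 150308 peaks). The CTCF core was found in 7 of the 20 regions in all 16 lists (against 34.8% of such regions in the series), in 0 of the 20 in 12 to 15 lists (against 16.1%), and in 12 of the 122 in all (against 11.3%). By annotation, 39 regions lay within 1 kb of a transcript start, 61 in introns, 11 in exons and 11 between genes. JAK1, whose annotated bounds are the longest, had 46 regions, STAT3 had 20, IFNGR2 had 16, IFNAR2 had 13 and IRF1 had 12. The other genes had few, with 5 at STAT2, 4 at TYK2, 3 at IFNAR1 and 3 at IFNGR1.

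The first comparison asked whether STAG2 KD changed the number of peaks at these genes. STAG2 peaks fell from 52 in WT to 32 in STAG2-KD in set 1 and from 70 to 58 in set 2, a mean log2 ratio of −0.49 ± 0.30 (SD, n = 2). Over all STAG2 peaks the mean log2 ratio was −0.30. STAG1 peaks numbered 39 in WT and 49 in STAG2-KD in set 1, and 60 and 60 in set 2 (0.16 ± 0.23, against 0.26 over all STAG1 peaks). SMC1A peaks numbered 73 and 70 in set 1 and 108 and 94 in set 2 (−0.13 ± 0.099, against 0.086 over all SMC1A peaks). CTCF peaks numbered 52 and 46 in set 1 and 67 and 63 in set 2 (−0.13 ± 0.062, against −0.022 over all). In STAG2, SMC1A and CTCF the STAG2-KD list had fewer member peaks in each set, and STAG1 had more or as many.

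None of these differences passed the two-sided exact permutation test (p = 0.667 for STAG2, SMC1A and CTCF and p = 1 for STAG1), which cannot give less than 0.333 with 2 lists against 2. The direction of SMC1A and CTCF depended on the weak peaks. With only peaks of −log10 q-value of at least 5 the mean log2 ratio became 0.24 for SMC1A and 0.051 for CTCF, and with the strongest 58521 peaks of every list it became 0.021 and 0.076, while that of STAG2 shrank to −0.047.

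**Figure D1:**
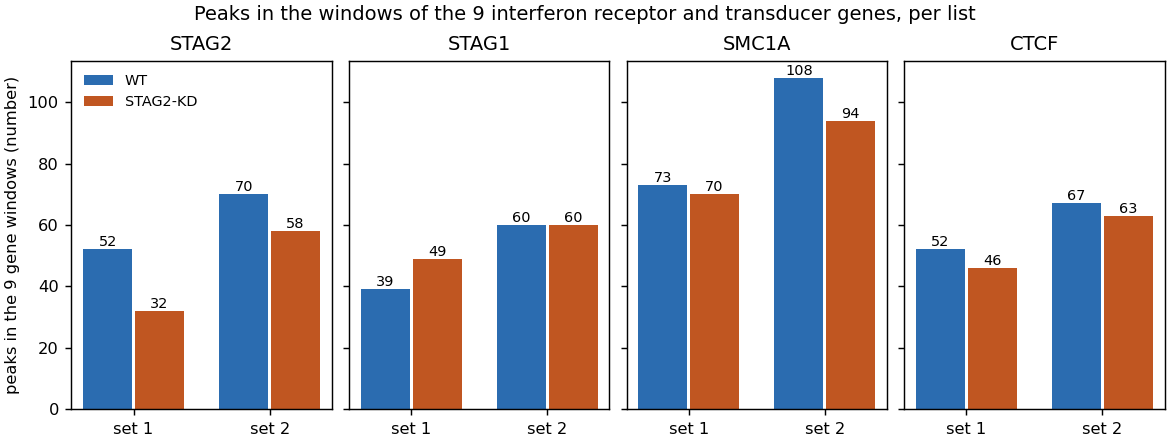
Number of peaks in the 9 gene windows (y axis) in each of the 16 lists, by antibody and set, with WT in blue and STAG2-KD in orange; each bar is 1 library. STAG2 fell from 52 to 32 in set 1 and from 70 to 58 in set 2, and STAG1 is the antibody without a fall in either set.

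A peak was called lost when a WT peak had no overlapping STAG2-KD peak of the same antibody and set, and gained in the reverse case. Of the STAG2 member peaks, 20 of 52 (38.5%) were lost in set 1, where 32.2% of all STAG2 peaks were lost, and 17 of 70 (24.3%) in set 2, against 22.1%. Gained STAG2 peaks numbered 1 of 32 in set 1 (3.13%, against 6.62% of all) and 3 of 58 in set 2 (5.17%, against 12%). The lost peaks were weak ones. On a percentile scale, on which 100 is the strongest peak of a list by p-value, the lost STAG2 member peaks had a median of 22.8 in set 1 and 11.5 in set 2, whereas the other WT member peaks had medians of 60.1 and 65.0. By gene, set 1 losses took 5 of 8 STAG2 peaks at IFNAR2, 4 of 5 at STAT2, 3 of 14 at JAK1 and 1 of 5 at IRF1. In set 2 they took 2 of 11 at IFNAR2, 2 of 4 at STAT2, 6 of 21 at JAK1 and 0 of 7 at IRF1, so the order of IFNAR2 and JAK1 did not repeat.

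STAG1 went the other way in set 1. STAG1 peaks were gained at 13 of 49 (26.5%, against 31.7% of all STAG1 peaks) in set 1 and at 7 of 60 (11.7%, against 18.6%) in set 2, and lost at 2 of 39 (5.13%, against 6.42%) and 8 of 60 (13.3%, against 13.6%). At the 20 lost STAG2 member peaks of set 1, STAG1 was present in both conditions at 5, in STAG2-KD alone at 4 and in neither at 11. At the 17 lost in set 2, STAG1 was present in both conditions at 2, in WT alone at 1, in STAG2-KD alone at 1 and in neither at 13. A STAG1 peak in STAG2-KD alone was thus found at 20.0% and 5.88% of the lost STAG2 member peaks, against 20.4% and 9.95% of all lost STAG2 peaks.

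SMC1A and CTCF peaks turned over in both directions. SMC1A peaks were lost at 17 of 73 (23.3%, against 19.1%) in set 1 and 30 of 108 (27.8%, against 25.8%) in set 2, and gained at 16 of 70 (22.9%, against 28.6%) and 21 of 94 (22.3%, against 29.7%). CTCF peaks were lost at 11 of 52 (21.2%, against 12.3%) in set 1 and 9 of 67 (13.4%, against 16.9%) in set 2, and gained at 7 of 46 (15.2%, against 15.1%) and 7 of 63 (11.1%, against 12.1%). The CTCF loss stood above the share over all peaks in set 1 and below it in set 2. Each call depends on where the authors set the cutoff of a list, and no read-level comparison of WT with STAG2-KD stands behind it.

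Few of these calls repeated. Of the STAG2 sites present in WT in both sets, 2 of 44 were lost in both (4.55%, against 4.98% of all such sites), and 0 of 33 were gained in both (against 0.734%). For STAG1 the counts were 0 of 37 lost (against 1.41%) and 0 of 43 gained (against 6.18%). For SMC1A, 1 of 50 was lost (2.00%, against 3.22%) and 1 of 50 gained (2.00%, against 5.70%). For CTCF, 3 of 46 were lost (6.52%, against 3.11%) and 1 of 44 gained (2.27%, against 1.92%). The counts are too small to tell from these shares, and the thresholds move them: with −log10 q-values of at least 5, 5 STAG1 and 5 SMC1A sites were gained in both sets. The share over all sites was not computed at that threshold, so these 2 counts cannot be set against the series.

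Both lost STAG2 sites lie at the canonical start of STAT2, the partner of IRF9 in the complex that binds the ISRE. The upstream site reaches over the start, and the other lies downstream of it. The upstream site (chr12:56753819-56754633) had 19 reads at its summit in WT of set 1 (95% interval 11.4 to 29.7) and 24 in WT of set 2 (15.4 to 35.7), with percentiles of 35.4 and 38.0, and no peak in either STAG2-KD list. At the same local background a STAG2-KD peak would have needed 10 reads in set 1 and 13 in set 2, which lies below both WT intervals. No STAG2-KD reads were counted there, and the site was picked for having no STAG2-KD peak, so this is no test of a fall. The downstream site (chr12:56752626-56753029), which holds the ISRE, had 17 reads (9.90 to 27.2) and 26 reads (17 to 38.1) in WT. There a STAG2-KD peak would have needed 13 and 18 reads, so a count inside the WT interval could still have gone uncalled in either set. The peaks needed more reads there because the expected background was high, at 3.47 reads in set 1 and 9.28 in set 2.

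The other antibodies did not move as one at the STAT2 start. STAG1 had no peak there in any of the 4 lists. CTCF had a weak peak over the start (chr12:56753688-56754232) in WT alone, with 7 reads in set 1 and 10 in set 2 and percentiles of 3.4 and 2.98, and it was lost in both sets. In the region of the downstream site, CTCF stood at 4.46 in WT and 5.41 in STAG2-KD in set 2. SMC1A stood there at 48.1 and 37.5 in set 2, and neither antibody had a peak there in set 1. SMC1A upstream of the start had 8 reads in WT and no peak in STAG2-KD in set 1, but 23 reads in WT and 28 in STAG2-KD in set 2, at percentiles of 54.1 and 58.8. Farther along the gene, 13.2 kb from the canonical start and at the start of a shorter transcript, a region (chr12:56740209-56741015) was present in 15 of 16 lists. Its STAG2 percentiles were 45.2 in WT and no peak in STAG2-KD in set 1, and 58.1 and 46.3 in set 2, whereas CTCF kept 58.9 and 51.9 in set 1 and 68.2 and 62.3 in set 2. A region 25.8 kb from the start, at the neighbouring genes PAN2 and IL23A, was present in all 16 lists.

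**Figure D2:**
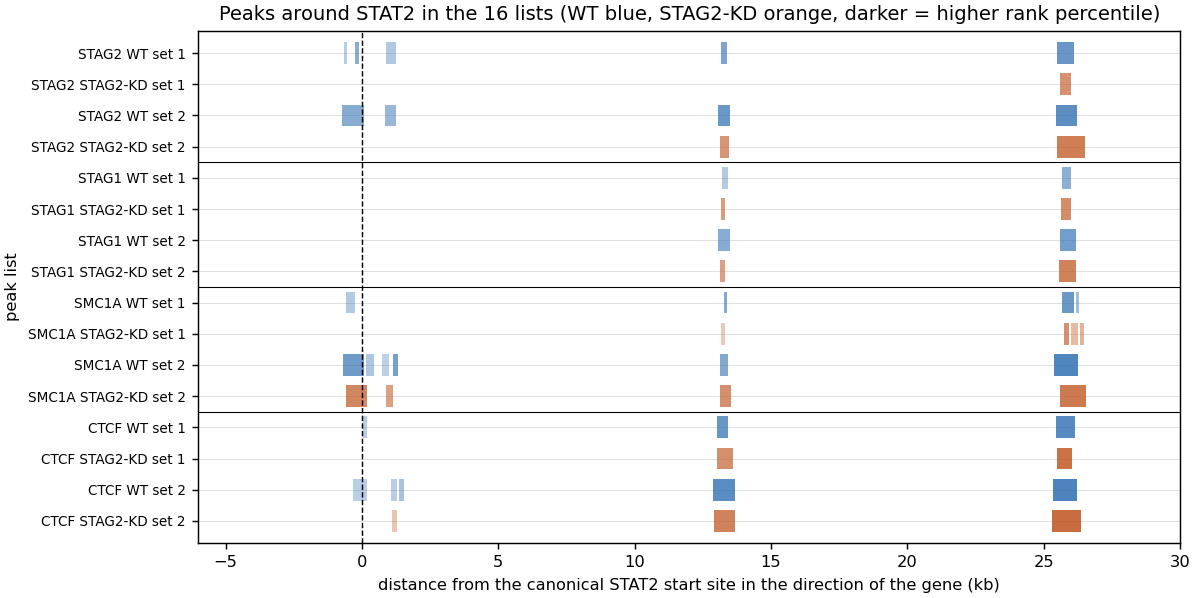
Peaks around STAT2 in the 16 lists (rows), placed by distance from the canonical start in the direction of the gene (x axis, kb); bars span the called peaks, WT in blue and STAG2-KD in orange, darker at a higher rank percentile. STAG2 peaks lie at the start (dashed line) and just downstream of it in the WT rows and are missing there from the STAG2-KD rows, while the regions at 13.2 and 25.8 kb persist in most or all lists.

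JAK1, the kinase shared by the interferon receptors and many cytokine receptors, gained 1 site and lost another. A CTCF peak 120 kb into the gene (chr1:65312399-65312676) appeared in STAG2-KD in both sets, with 10 reads in set 1 (4.80 to 18.4) and 12 in set 2 (6.20 to 21). An SMC1A peak at the same place (chr1:65312259-65312552) appeared with 8 reads (3.45 to 15.8) and 14 reads (7.65 to 23.5). Their summits lay 71 and 41 bases from the CTCF core printed above, and neither STAG1 nor STAG2 had a peak there in any list. The sites were weak, with percentiles of 17.2 and 22.2 for CTCF and 9.37 and 23.2 for SMC1A. A WT peak would have needed 6 and 7 reads for CTCF and 7 and 10 for SMC1A, so WT counts within the STAG2-KD intervals could have gone uncalled except for CTCF in set 2.

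The CTCF site lost at JAK1 (chr1:65441461-65441681), in an intron 9.37 kb ahead of the canonical start, had 10 reads in set 1 and 13 in set 2 in WT, with percentiles of 11.7 and 14.9. A STAG2-KD peak would have needed 8 and 9 reads, which lies within the intervals of both WT counts. No CTCF core lay within it, and the nearest was 7685 bases away. The third CTCF site lost in both sets (chr21:34773304-34773610) lay 2.31 kb ahead of IFNGR2 and was stronger. It had 13 reads in WT of set 1 (6.92 to 22.2) and 24 in WT of set 2 (15.4 to 35.7). A STAG2-KD peak would have needed 8 and 9 reads, which lies below the WT interval in set 2 alone, and no STAG2-KD reads were counted. The wider region around it had SMC1A and STAG2 in all 4 lists each, and the STAG2 percentile there went from 51.3 to 5.73 in set 1 and from 66.0 to 51.7 in set 2.

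The SMC1A site lost in both sets (chr5:131815726-131816118) lay beyond the 3′ end of the canonical IRF1 transcript, 10.6 kb from its start, in an intron of longer annotated IRF1 transcripts that overlap the antisense gene IRF1-AS1. It had 9 reads in WT of set 1 and 14 in WT of set 2, with percentiles of 20.5 and 50.3, and a STAG2-KD peak would have needed 7 reads in either set, which lies within the WT interval of set 1 (4.12 to 17.1) and below that of set 2 (7.65 to 23.5). Neither STAG antibody had a peak there in any list. Over the 8 sites changed in both sets, a count short of a call lay within the interval of the other condition in 11 of 16 comparisons within a set.

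The receptor genes differed in what their promoters held. At IFNAR1, the lower-affinity chain of the type I receptor, the promoter region (chr21:34696386-34698266) was present in 14 lists. STAG1 had no peak in WT and a percentile of 30.7 in STAG2-KD in set 1, and 33.8 and 48.1 in set 2. STAG2 went from 8.14 to 15.2 in set 1 and from 56.1 to 57.1 in set 2, so both STAG percentiles were higher in STAG2-KD there, although STAG2 reads went from 15 to 17 in set 1 and from 41 to 36 in set 2. Behind the gene, 36.4 kb from its start, a region with a CTCF core (chr21:34732403-34734590) was present in all 16 lists, with CTCF percentiles of 92.9 in WT and 95.3 in STAG2-KD in set 1 and 96.4 and 97.7 in set 2. An exonic region 22.8 kb from the start had CTCF in all 4 lists, SMC1A in 3 and no STAG peak.

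IFNAR2 encodes the high-affinity chain of the same receptor. Its promoter region (chr21:34601841-34603472) had STAG2 at 37.6 in WT and no peak in STAG2-KD in set 1, but 47.8 and 54.4 in set 2. STAG1 there rose from 1.47 to 30.3 in set 1 and from 32.7 to 40.9 in set 2, with 12 reads in WT and 16 in STAG2-KD in set 1 and 25 and 22 in set 2, so the percentile and the unscaled reads parted in set 2. A pair of upstream regions, the farther 32.9 kb ahead of the canonical start, were present in all 16 lists. STAG2 at the nearer one, which holds a CTCF core, was at 90.4 in WT and 93.7 in STAG2-KD in set 1 and at 93.4 and 95.5 in set 2. At the farther one STAG2 fell from 94.0 to 84.5 and from 94.9 to 91.2, and STAG1 fell from 98.2 to 94.0 and from 97.5 to 96.4.

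IFNGR1, the ligand-binding chain of the interferon gamma receptor, had the emptiest promoter of the 9. Its region (chr6:137539965-137540876) was present in 6 lists, with no CTCF peak in any of the 4 and no STAG peak in set 1. In set 2, STAG2 stood at 35.7 in WT and 18.8 in STAG2-KD and STAG1 at 26.8 in WT alone. The main site of the gene was an intronic region 17.2 kb from the start (chr6:137523063-137523757), present in 15 lists. STAG2 there had 36 reads in WT (25.2 to 49.8) and no peak in STAG2-KD in set 1, and 44 reads in WT (32.0 to 59.1) and 21 in STAG2-KD (13.0 to 32.1) in set 2. STAG1, SMC1A and CTCF were present there in all 4 lists each. STAG1 percentiles were 43.9 in WT and 46.6 in STAG2-KD in set 1 and 46.8 and 42.7 in set 2. STAG1 reads went from 29 to 22 and from 29 to 20, with overlapping intervals. STAG2 thus had fewer reads or no peak in STAG2-KD there, and STAG1 showed no rise in unscaled reads.

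IFNGR2, which carries the signal of interferon gamma to JAK2, had a promoter region (chr21:34775320-34777058) in 15 lists. STAG2 there went from 32.9 to 14.7 in set 1 and from 49.8 to 46.5 in set 2, and STAG1 from no peak to 21.4 and from 24.2 to 35.0. The strongest region of the window lay 42.0 kb from the start, in an intron that the annotation also assigns to TMEM50B. It was present in all 16 lists, with STAG2 at 85.9 and 86.4 in set 1 and at 92.8 and 92.5 in set 2. Of the 16 regions here, 12 had no CTCF peak and 8 held SMC1A alone, counts for which the share over all regions was not computed.

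The promoter of JAK1 (chr1:65430758-65432972) was occupied in all 16 lists. STAG2 reads at its summit were 42 in WT and 36 in STAG2-KD in set 1 and 94 and 80 in set 2, and STAG1 reads were 33 and 34 in set 1 and 55 and 55 in set 2. These counts are not scaled to depth, and for STAG1 the STAG2-KD library had the lower background in each set. In percentiles STAG2 went from 58.6 to 51.6 and from 76.5 to 76.1, and STAG1 from 43.2 to 53.5 and from 63.9 to 66.9. CTCF was weak there, at 25.3, 20.6, 19.8 and 39.9 in the same order. The 6 regions of the JAK1 window in all 16 lists included 1 at each end of the window, at 142 kb within the neighbouring gene RAVER2 and 109 kb ahead of the start, where STAG2 percentiles were 82.1 to 97.5. Of the 46 regions, 19 held SMC1A alone, and the share over all regions was not computed.

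**Figure D3:**
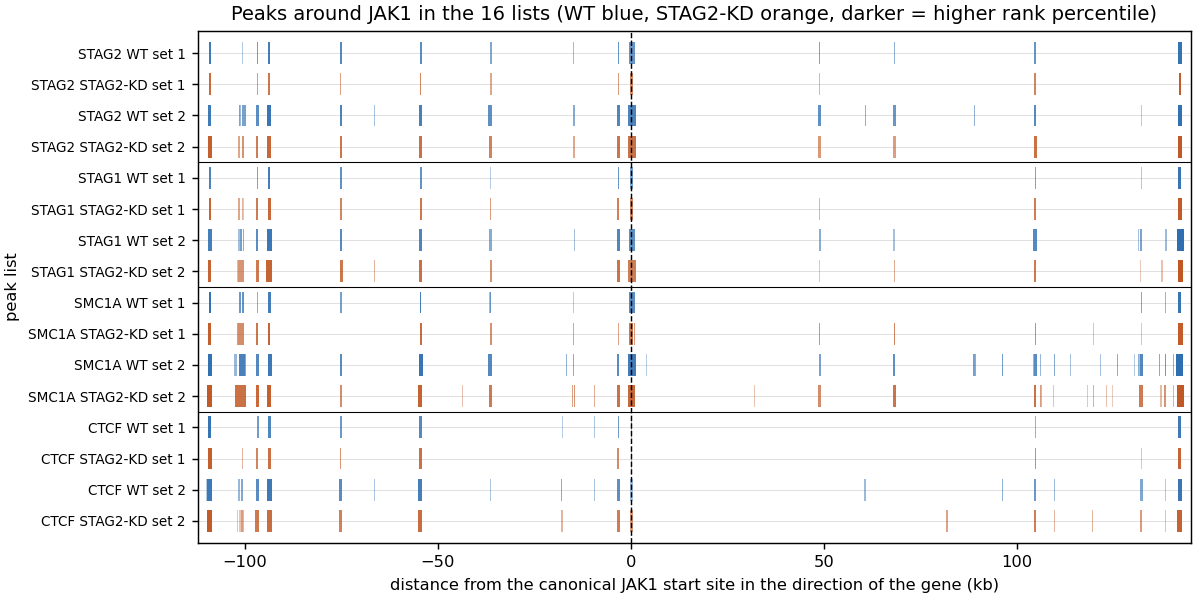
Peaks around JAK1 in the 16 lists (rows), placed by distance from the canonical start in the direction of the gene (x axis, kb); WT in blue and STAG2-KD in orange, darker at a higher rank percentile. Most strong sites, among them those at 142 kb and at −109 kb, recur in every list, and the site gained near 120 kb shows as thin orange bars in the SMC1A and CTCF rows.

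TYK2, the kinase paired with IFNAR1, had the largest rise in STAG1 percentile among the 9 promoter sites in each set. At its promoter region (chr19:10490499-10492011) STAG1 had 13 reads in WT (6.92 to 22.2) and 22 in STAG2-KD (13.8 to 33.3) in set 1, and 19 in WT (11.4 to 29.7) and 26 in STAG2-KD (17 to 38.1) in set 2. The percentile went from 7.56 to 44.6 and from 12.3 to 46. Counted from the strongest peak, the STAG1 peak moved from place 58734 to 47418 in set 1 and from 86324 to 56551 in set 2. SMC1A rose as well, from 11 to 15 reads and from 17 to 31 reads, but the read intervals overlapped between WT and STAG2-KD for either antibody in each set. The CTCF percentile fell there, from 6.21 to 0.012 in set 1 and from 35.1 to 14.1 in set 2. CTCF reads in set 1 went from 8 to 11. STAG2 had no peak in set 1, and in set 2 its WT and STAG2-KD peaks of 16 and 21 reads did not overlap each other. Upstream of TYK2, 10.3 kb from its start, a region with 2 CTCF cores (chr19:10498870-10502396) was present in all 16 lists, with CTCF percentiles of 93.1 to 98.7. A small region 4.17 kb upstream held CTCF alone, in all 4 lists, with a CTCF core and percentiles of 4.22 and 35.0 in set 1 and 23.2 and 35.0 in set 2.

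STAT3, which transmits signals of the interleukin-6 family and also of interferons, held the strongest region of the 9 windows. An intronic region 65.5 kb from the start (chr17:40473929-40475872), with 2 CTCF cores, stood at percentiles of 97.5 to 99.8 in all 16 lists. STAG2 was at 99.4 in WT and 97.5 in STAG2-KD in set 1 and at 99.4 and 99.3 in set 2. The STAT3 promoter (chr17:40539208-40541371) was likewise present in all 16 lists. SMC1A there went from 82.8 to 73.4 in set 1 and from 91.3 to 84.3 in set 2, with 48 reads in WT and 46 in STAG2-KD in set 1 and 85 and 76 in set 2. STAG1 rose from 32.2 to 52.7 and from 54.4 to 63.5.

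IRF1, itself a transcription factor induced through its GAS, had a promoter region with a CTCF core (chr5:131825108-131827087) in all 16 lists. CTCF reads were 49 in WT (36.3 to 64.8) and 72 in STAG2-KD (56.3 to 90.7) in set 1, and 86 (68.8 to 106) and 111 (91.3 to 134) in set 2. SMC1A reads were 22 and 33 in set 1 and 51 and 80 in set 2. STAG2 reads were 46 and 40 in set 1 and 73 and 89 in set 2, whereas STAG1 reads were 16 and 31 in set 1 and 51 and 47 in set 2. By these unscaled reads, CTCF and SMC1A were higher in STAG2-KD in both sets, with overlapping intervals, and the STAG subunits changed direction between sets. The STAG1 fall in set 2 was small, and the STAG2-KD library of STAG1 had the lower background there. An intronic region of longer IRF1 transcripts (chr5:131835676-131837914), 10.6 kb ahead of the canonical start, had CTCF at 93.4 in WT and 88.0 in STAG2-KD in set 1 and at 98.1 and 86.6 in set 2.

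**Figure D4:**
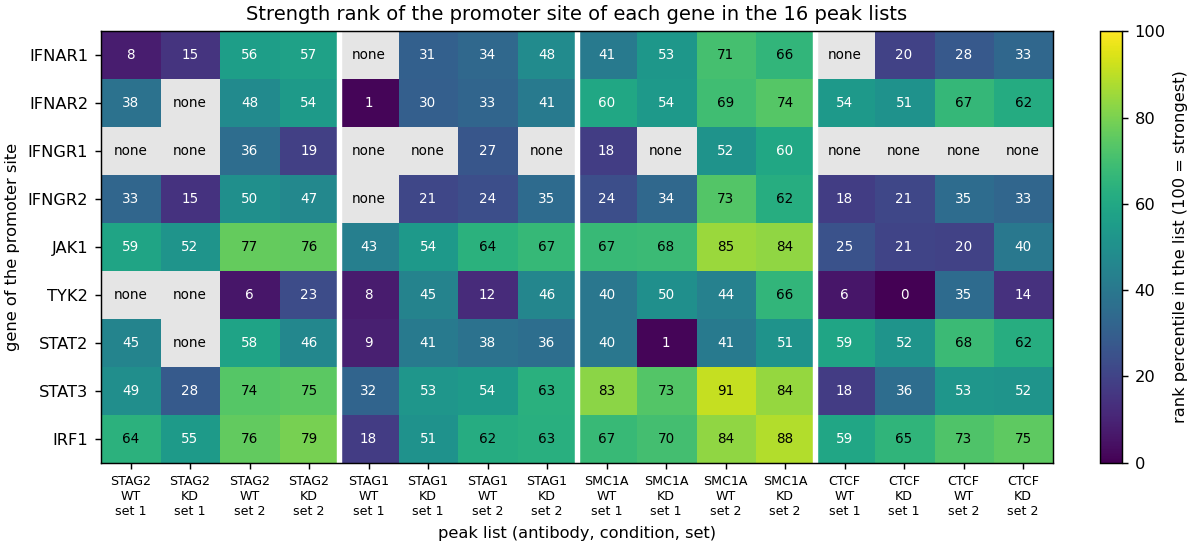
Rank percentile (colour and number, 100 = strongest peak of the list) of the promoter site of each gene (rows) in the 16 lists (columns, KD = STAG2-KD); grey cells had no peak, and the STAT2 site lies 13.2 kb from the canonical start. IFNGR1 is empty in 10 lists, JAK1, STAT3 and IRF1 are filled in all 16, and the STAG1 values of TYK2 go from 8 to 45 in set 1 and from 12 to 46 in set 2.

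Across the 9 promoter sites, STAG1 percentiles rose at 6 of 6 sites with a peak in both conditions in set 1 (against 84.5% of all such STAG1 sites) and at 7 of 8 in set 2 (against 60.4%). STAG2 percentiles rose at 1 of 5 (against 17.2%) and 5 of 9 (against 35.5%). SMC1A percentiles rose at 5 of 8 (against 60%) and 5 of 9 (against 51.4%), and CTCF at 3 of 7 (against 54.7%) and 3 of 8 (against 39.3%). The promoter sites are regions merged over the lists of every antibody. The shares over all sites use sites merged within the antibody, so the 2 are not like for like. The 5 STAG2 rises of set 2 include TYK2 (6.03 in WT and 23.4 in STAG2-KD). Its WT and STAG2-KD peaks did not overlap, and they were called lost and gained. The STAT2 site counted here is the one 13.2 kb from the canonical start, and not the start itself, where STAG1 had no peak and STAG2 was lost in both sets. Without it, STAG1 rose at 5 of 5 and 7 of 7 sites and STAG2 at 1 of 5 and 5 of 8. A percentile also moves with the length of its list, and counted as places from the strongest peak STAG1 moved up at 5 of 6 and 6 of 8 sites and STAG2 at 4 of 5 and 7 of 9. Places move with list length as well, and the share over all sites was not computed by places, so these counts cannot be set against the series. The STAG2 direction at the promoters therefore depended on the scale, and these sites are among those chosen for description, so no test was made over them.

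At all member sites present in the 4 lists of an antibody, the STAG2 percentile fell in both sets at 21 of 32, where 60.4% of all such sites fell, and rose in both at 4 (12.5%, against 12.5% of all). The STAG1 percentile rose in both sets at 19 of 35 (against 56.7%) and fell in both at 3 (against 11.1%). For SMC1A, 11 of 43 fell in both (against 29.5%) and 16 rose in both (against 39.7%). For CTCF, 13 of 38 fell (against 37.4%) and 12 rose (against 29.5%). The median change at member sites was −9.60 percentile points for STAG2 in set 1 and −1.89 in set 2, against −8.33 and −1.94 over all sites. For STAG1 it was 10.1 and 0.79, against 8.63 and 1.26. For SMC1A it was 0.81 and 0.70 and for CTCF 1.9 and −0.89.

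With peaks ranked by fold enrichment, these shifts were kept, at −5.47 for STAG2 and 7.45 for STAG1 (means over the sets). On other scales they shrank or turned. STAG2 lists were shorter in STAG2-KD and STAG1 lists longer, and with the strongest 58521 peaks kept in every list the mean over the sets of the median change turned from −5.74 to 0.53 for STAG2 and from 5.45 to −0.84 for STAG1. By set, the member medians were then 1.17 and −0.105 for STAG2 and −0.345 and −1.34 for STAG1. Over all sites they were −0.425 and −0.315 for STAG2 and 0.159 and 0.142 for STAG1, so the direction over all sites was kept. That setting also left out weak peaks, so that 26 STAG2 sites (of 32 before) and 26 STAG1 sites (of 35 before) were left to compare. Counted as places from the strongest peak, in percent of the shortest list, the mean of the medians was 2.41 for STAG2 and 0.094 for STAG1. By set, the member medians were 3.51 and 1.31 for STAG2 and 1.59 and −1.40 for STAG1. Over all sites they were 0.338 and 0.071 for STAG2 and −0.582 and −0.089 for STAG1.

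**Figure D5:**
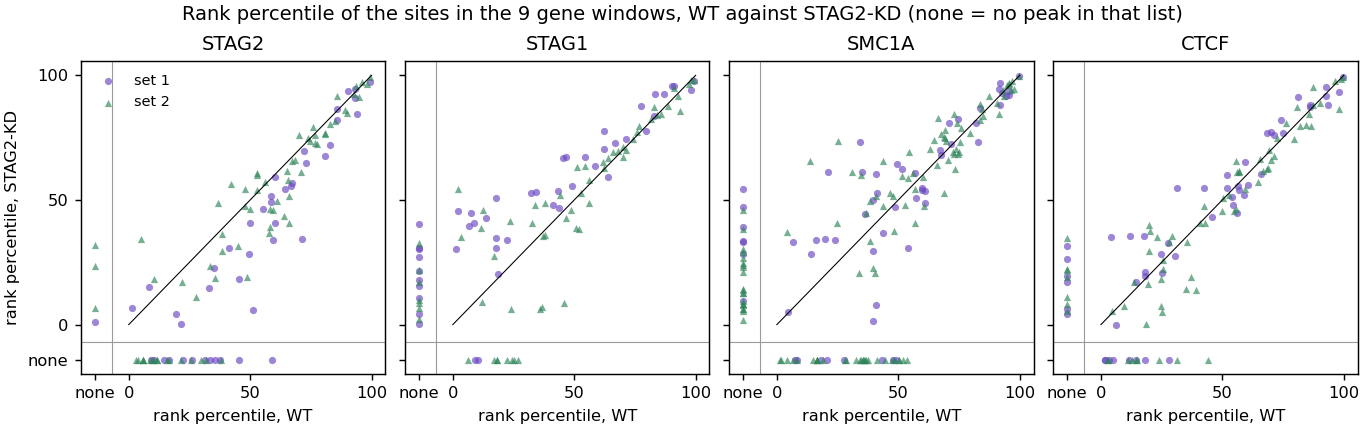
Rank percentile of each member site in WT (x axis) against STAG2-KD (y axis), by antibody, with set 1 as circles and set 2 as triangles; the diagonal marks equal rank and the band marked none holds sites without a peak in that list. STAG2 points of set 1 lie mostly below the diagonal and STAG1 points of set 1 mostly above it, and unmatched sites sit mostly at low percentiles.

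Other genes of interferon and cytokine signalling were counted in the same way. The 16 genes IFNLR1, IL10RB, JAK2, JAK3, STAT4, STAT5A, STAT5B, STAT6, IRF9, IRF2, SOCS1, SOCS3, USP18, PTPN2, PTPN6 and PIAS1 had 158 regions, of which some are shared with the windows of IFNAR2 and STAT3. Among their sites 4 of 52 STAG2 sites were lost (against 4.98% of all sites) and 1 of 43 gained in both sets (against 0.734%). For STAG1, 1 of 40 was lost (against 1.41%) and 4 of 51 gained (against 6.18%). For SMC1A, 0 of 57 were lost (against 3.22%) and 1 of 59 gained (against 5.70%), and for CTCF, 4 of 69 were lost (against 3.11%) and 1 of 60 gained (against 1.92%). The counts are too small to tell from these shares.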

How the data were processed

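Chromatin immunoprecipitation followed by sequencing (ChIP-seq) of STAG1, STAG2, SMC1A and CTCF gave 16 peak lists from 20 libraries, of which 4 were inputs without a list. All 16 lists were used. The authors aligned reads to hg19 and called peaks with MACS2 against the input of the same condition, which the 4 antibodies of a condition and set therefore share. Per the labels, Bowtie2 and MACS2 were named for set 1, and CASAVA 1.4, BWA, SAMtools, Picard, MACS2 and deepTools for set 2. The deposited fold enrichment is the pileup at the summit over the expected background. The deposited −log10 p-value and −log10 q-value belong to the same summit within its own list. The deposited score is 10 times the −log10 q-value in set 1 and 10 times the −log10 p-value in set 2. Set 1 was limited at a −log10 q-value of 2 and set 2 at a −log10 p-value of 2, so lists were compared only within a set.

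Peaks on the assembled chromosomes were kept, which left out 2.97 to 4.60% of rows in set 1 and 0.137 to 0.253% in set 2. Gene bounds came from the GENCODE annotation lifted to GRCh37. A peak was matched at 1 shared base. Reads were recovered for 856 of 894 member peaks (95.7%), with 99.4 to 100% of tested peaks within 0.02 of a whole read. Percentiles ranked peaks by p-value. Peak numbers were compared by an exact permutation test, and the pairing of sets comes from the protocols, which differ between sets and not between conditions. Every member gene was named with its promoter site (within 1 kb of an annotated start, the one in most lists), and every site changed in both sets. The members, lists and comparisons were chosen with earlier results of these data known. One gene of the wider pathway list is not reported here, and its counts were left out. Alternatives were a −log10 q-value of at least 5, an overlap of 50%, equal numbers of peaks, ranks by fold, windows without the 10 kb, each set alone, the replicate block, and, chosen after seeing the data, canonical transcript bounds and places from the strongest peak. Scripts were tested on simulated data and run with Python 3.11.15, pandas 2.3.3, NumPy 2.4.6, SciPy 1.17.1 and matplotlib 3.10.9.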

Additional observations from a re-analysis of the deposited data

Results flagged for a closer look

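The median change in percentile at member sites went down for STAG2 in each set (−9.60 in set 1 and −1.89 in set 2) and up for STAG1 (10.1 and 0.788), and it also went up for SMC1A (0.814 and 0.703). Over all sites of the series the medians were close to these for STAG2 (−8.33 and −1.94) and STAG1 (8.63 and 1.26), and 1.80 and 0.012 for SMC1A, so the opposition is not particular to the members. By percentile the JAK1 promoter site changed by −7.01 and −0.46 for STAG2 and by 10.4 and 2.99 for STAG1. Counted as places from the strongest peak, STAG2 at the JAK1 promoter moved up in both sets (from 32765 to 28337 and from 27950 to 25428), and STAG1 moved down in set 1 (from 36120 to 39780) and up in set 2 (from 35501 to 34606). STAG1 reads there, not scaled to depth, were 33 and 34 in set 1 and 55 and 55 in set 2. These pairs of antibodies stood out because both sets moved one way for one antibody and the opposite way for the other, and the difference was not tested. With equal numbers of peaks the member medians, averaged over the sets, turned in sign for STAG2, STAG1 and SMC1A. Over all sites the medians were then −0.425 and −0.315 for STAG2, 0.159 and 0.142 for STAG1, and −0.178 and −0.145 for SMC1A.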

How the results depend on the processing

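Of 160 recomputed values, 13 turned in sign and 36 moved by more than the spread between the sets or, for counts, by over 1.5 times. The other 111 met neither rule. Log2 ratios of peak number were judged by sign alone, so that of STAG1 in set 2 alone, which was 0, counts among the 111. Their size was not always kept, since with equal numbers of peaks the log2 ratio shrank to −0.047 for STAG2 and 0.021 for STAG1. With −log10 q-values of at least 5, the mean log2 ratio of peak number was 0.24 for SMC1A and 0.051 for CTCF. The lost share was then 10.7% for SMC1A and 10.7% for CTCF, the gained share 5.79% for STAG2 and 26.8% for SMC1A. Sites gained in both sets then numbered 5 for STAG1, 5 for SMC1A and 3 for CTCF, and 1 CTCF site was lost in both. With 58521 peaks in each list, the log2 ratio was 0.021 for SMC1A and 0.076 for CTCF, and the median percentile change 0.53 for STAG2, −0.84 for STAG1, −0.34 for SMC1A and −0.25 for CTCF. The lost share was then 17.9% for STAG2, 12.2% for SMC1A and 3.23% for CTCF, and the gained share 15.8% for STAG2, 17.3% for SMC1A and 8.12% for CTCF. Sites gained in both sets then numbered 1 for STAG2, 3 for STAG1, 0 for SMC1A and 0 for CTCF, and those lost 1 for STAG1 and 0 for CTCF. Counted peak by peak with an overlap of at least 50%, sites lost in both sets numbered 5 for STAG2, 4 for SMC1A and 6 for CTCF, and those gained 1 for STAG2, 2 for STAG1 and 6 for SMC1A. The lost share of SMC1A was then 33.8%, and the gained shares of STAG2 and SMC1A were 6.57% and 32.2%. Without the 10 kb the gained share was 5.91% for STAG2 and 20.6% for SMC1A, and the median percentile change 1.22 for SMC1A and −0.77 for CTCF. With bounds of the canonical transcript the lost share of SMC1A was 30.04%, and the median percentile change −0.32 for SMC1A and −0.44 for CTCF. Ranked by fold enrichment, the SMC1A median was 0.94. As places from the strongest peak the median change was 2.41 for STAG2 and 0.33 for SMC1A, and STAG2 moved up at 11 promoter sites over the sets against 6 by percentile. Leaving out each set in turn, the CTCF median ranged from −0.89 to 1.9. For lost and gained shares, site counts and promoter counts, the values over all peaks or sites were not computed under these settings. The cause of these shifts was not tested beyond what each setting removes.

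With the replicate block (the set), the log2 ratios of −0.49 for STAG2, −0.13 for SMC1A and −0.13 for CTCF each had a sign-flip p of 0.5 by exact permutation, the smallest that 2 pairs allow, and that of STAG1 (0.16) a p of 1, so no call changed. Depth limits the weak sites, since a count short of a call lay within the other condition's interval in 11 of 16 comparisons at sites changed in both sets.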
